A study of Caenorhabditis elegans with 6 samples.

Results

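The eggshell genes described here are 9 of the 20447 genes in the deposited counts table, taken by their WormBase symbols with earlier results of these data known. They encode proteins of the egg surface: *cpg-1*, *cpg-2*, *cbd-1*, *perm-2*, *perm-4*, *egg-1*, *egg-2*, *egg-3* and *chs-1*. The libraries hold poly(A)+ RNA of *Caenorhabditis elegans* carrying *ebax-1(tm2321)*, or of the wild type, strain N2, and reads were counted per gene over coding sequence. EBAX-1, the worm counterpart of ZSWIM8, recognizes substrates for an E3 ubiquitin ligase whose activity causes some microRNAs to decay, and the L1 libraries were made to see what its loss does to mRNAs targeted by those microRNAs. Starved larvae of the first stage (L1) gave 2 libraries of *ebax-1(tm2321)* (strain CZ9907) and 2 of the wild type, described as independent biological replicates. Gravid adults gave 1 library of *ebax-1(tm2321)* (strain FX02321) and 1 of the wild type, so the mutant strain changes with the stage. All worms were kept at 20 °C on *E. coli* OP50 and synchronized by bleaching. The larvae hatched overnight in M9 buffer with no food, and the adults were fed for about 68 h after that hatch. Libraries came from 3 µg of total RNA in larvae and from 10 µg in adults.

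The *C. elegans* eggshell is assembled by the egg itself, mostly after a sperm has entered it, from parts that the oocyte has already stored. The outermost vitelline layer holds CBD-1, PERM-2 and PERM-4. Beneath it lies a chitin layer, made by the chitin synthase CHS-1, and then a layer of the chondroitin proteoglycans CPG-1 and CPG-2, with a lipid-rich permeability barrier formed inside it. EGG-1 and EGG-2 are LDL-receptor-repeat proteins of the oocyte surface that are needed for fertilization, and EGG-3 is a tyrosine phosphatase-like protein that links CHS-1 to egg activation at the cortex. These RNAs are therefore made in the adult hermaphrodite germline. A newly hatched larva has only a pair of primordial germ cells and no oocytes.

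The 9 genes lie on 4 chromosomes of the WBcel235 assembly, and the coding exons of none of them overlap those of another gene on either strand. Of the vitelline layer genes, *cbd-1* (IV:11372991-11377627, plus strand) has 3957 bp of coding sequence in 10 segments. The other members of that layer are neighbours read in opposite directions: *perm-4* (IV:1121494-1125107, minus strand, 993 bp coding) and *perm-2* (IV:1126790-1128865, plus strand, 609 bp coding) start 1683 bp apart with 0 protein-coding genes between them. The proteoglycan genes are *cpg-1* (III:4489359-4491392, plus strand, 1752 bp coding) and *cpg-2* (III:7102092-7103990, minus strand, 1572 bp coding). On the same chromosome lie *egg-1* (III:5728180-5730159, plus strand, 1653 bp coding) and *egg-2* (III:7058527-7060583, minus strand, 1644 bp coding). *egg-2* starts 43407 bp from *cpg-2*, with 17 protein-coding genes between. *egg-3* (II:10882408-10884441, minus strand) has 1665 bp of coding sequence and *chs-1* (I:7554855-7559916, plus strand) has 3966 bp. *egg-1* and *egg-2* are close paralogs. As the study counted unique alignments only, reads that fit both were dropped and the level of each is uncertain to that extent.

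The L1 libraries held 10937932 to 13425500 counts, and the adult libraries held 13148409 in *ebax-1* mutants and 21328335 in the wild type. *ebax-1* itself had 501 and 523 counts in mutant L1 larvae, against 970 and 873 in wild-type L1 larvae, and 275 counts in the mutant adults, against 1051 in the wild-type adults. Its L1 log2 fold change was -0.79 (edgeR quasi-likelihood test, adjusted p = 5.07e-06), so its level went with the labels. Counts are summed over the coding sequence of a gene and do not show which part of *ebax-1* the allele removes. The stage labels were checked with yolk genes and L1 timing genes. The 6 yolk protein genes summed to 42741 CPM in mutant adults and 38532 CPM in wild-type adults, against 2.7 to 3.98 CPM in the 4 L1 libraries. CPM (counts scaled to a common library size) were set here by TMM over the 6 libraries together. The 3 L1 timing genes, *lin-14* and *lin-28* among them, had 0.237 of their L1 sum in mutant adults and 0.239 of it in wild-type adults. Replicate L1 libraries were not copies of each other (chi-square over degrees of freedom 6.42 in *ebax-1* and 3.98 in the wild type), so each was used as a sample of its own.

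In gravid adults the eggshell genes were abundant, ranking between 128 and 2361 of 19620 genes, and their order was the same in both genotypes. Levels were compared between genes as CPM per kb of coding sequence. *cpg-2* was the highest, with 898 CPM per kb in *ebax-1* adults and 979 in wild-type adults, followed by *perm-2* with 779 in *ebax-1* adults and 844 in the wild type. *cpg-1* was next at 665 CPM per kb in *ebax-1* and 811 in the wild type, ahead of *perm-4* at 577 in *ebax-1* and 721 in the wild type. These 4 genes for secreted layer proteins held ranks from 128 to 189 in the adult libraries. *cbd-1*, the largest of the vitelline layer proteins, had 327 CPM per kb in *ebax-1* adults and 364 in wild-type adults.

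The membrane and cortex genes were lower. *egg-1* had 202 CPM per kb in *ebax-1* adults and 214 in wild-type adults, and its paralog *egg-2* had 136 in *ebax-1* and 131 in the wild type. *chs-1*, the enzyme of the chitin layer, stood between them at 160 CPM per kb in *ebax-1* and 151 in the wild type. *egg-3* was the lowest of the 9, with 72.0 CPM per kb in *ebax-1* adults and 74.8 in wild-type adults. The highest member thus exceeded the lowest 12.5-fold in *ebax-1* adults and 13.1-fold in wild-type adults. With 1 adult library per genotype the order of neighbours has no replicate check. Together the 9 genes took 0.704% of all counts in *ebax-1* adults and 0.735% in wild-type adults.

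**Figure D1:**
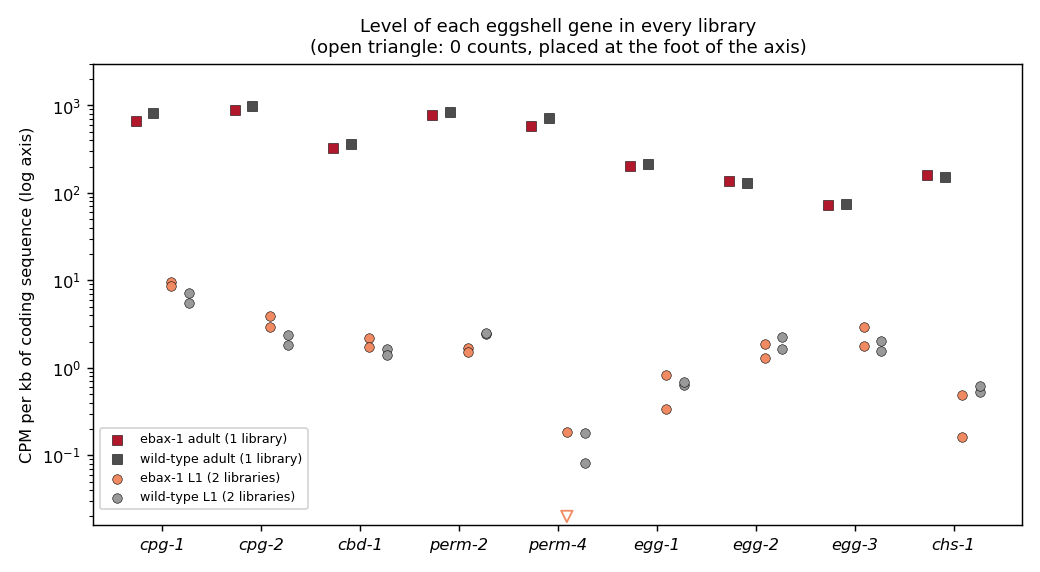
Level of each eggshell gene in every library, as CPM per kb of coding sequence on a log axis. Squares are adult libraries and circles are L1 libraries, with *ebax-1* in red tones and wild type in grey, and the open triangle marks the *ebax-1* L1 library with 0 counts of *perm-4*. All 9 genes lie between 72.0 and 979 CPM per kb in adults and under 10 in larvae.

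The same genes were scarce in starved L1 larvae. They summed to 507 and 378 counts in the *ebax-1* L1 libraries, against 410 and 335 counts in the wild-type L1 libraries. That was 0.00445% and 0.00346% of all counts in *ebax-1* larvae, and 0.00305% and 0.00267% in wild-type larvae. The order of levels differed from that in adults. *cpg-1* was the highest member in every L1 library, with 9.67 and 8.67 CPM per kb in *ebax-1* larvae and 7.09 and 5.56 in wild-type larvae, and it overlapped no other member. *cpg-2*, *egg-3*, *cbd-1*, *perm-2* and *egg-2* formed a middle group of 1.29 to 3.95 CPM per kb in *ebax-1* larvae and 1.39 to 2.47 in wild-type larvae. Within that group most neighbours in the order overlapped between replicate libraries. The exceptions were *cbd-1* over *perm-2* in *ebax-1* larvae, and *perm-2* over *cpg-2* in wild-type larvae, each separated by a narrow gap.

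Lowest in the larvae were *egg-1*, *chs-1* and *perm-4*. *egg-1* had 0.824 and 0.336 CPM per kb in *ebax-1* larvae, against 0.643 and 0.696 in wild-type larvae. *chs-1* had 0.494 and 0.163 CPM per kb in *ebax-1* larvae, against 0.536 and 0.625 in wild-type larvae. These 3 genes overlapped in turn in *ebax-1* larvae and were separated in wild-type larvae. *perm-4* was barely detected, with 0 and 2 counts in *ebax-1* larvae and 1 and 2 counts in wild-type larvae. Its divergent neighbour *perm-2* had 12 and 10 counts in *ebax-1* larvae and 18 and 17 counts in wild-type larvae. In wild-type larvae *perm-2* therefore came next after *cpg-1* per kb of coding sequence and *perm-4* last, although in adults both were among the 4 highest.

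All 9 genes were higher in gravid adults than in starved L1 larvae. The test was an edgeR quasi-likelihood F-test over the 6 libraries with genotype and stage as terms, and it called 44% of the 15800 genes tested as higher in adults. Adjusted p-values of the 9 ran from 1.43e-09 to 2.43e-08. The median log2 fold change of the members was 8.34, against 0.05 over all genes tested. In whole worms, more cells of a type and more RNA per cell cannot be told apart, and here stage goes with feeding and, for the mutants, with strain. *perm-4* passed the filter on low counts through its adult libraries alone, and the other 8 also passed it on the L1 libraries alone.

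The size of the stage difference varied among the members, also within the vitelline layer and between the proteoglycan genes. In the vitelline layer, *cbd-1* had 19222 counts in *ebax-1* adults and 32609 in wild-type adults, against 101 and 74 in *ebax-1* larvae and 80 and 62 in wild-type larvae. Its log2 fold change was 7.62 (SE 0.157). *perm-2* had 7045 counts in *ebax-1* adults and 11630 in wild-type adults, a log2 fold change of 8.62 (SE 0.137) over the larval counts given above. No adult count came near the larval range for these genes. *perm-4* had 8512 counts in *ebax-1* adults and 16209 in wild-type adults. Against its 2 counts over the *ebax-1* L1 libraries, the scaled ratio was 6462 (95% counting interval 1788 to 53369), and against 3 counts over the wild-type L1 libraries it was 5618 (1922 to 27246). The fitted log2 value of 12.41 for *perm-4* rests on those few larval counts.

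Of the proteoglycan genes, *cpg-2* had 20972 counts in *ebax-1* adults and 34832 in wild-type adults, against 73 and 50 in *ebax-1* larvae and 46 and 32 in wild-type larvae. Its log2 fold change was 8.41 (SE 0.205). *cpg-1* had 17302 counts in *ebax-1* adults and 32165 in wild-type adults, against 199 and 164 in *ebax-1* larvae and 152 and 110 in wild-type larvae. Its log2 fold change was smaller, at 6.58 (SE 0.189), and it was the member with the highest larval level.

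Among the oocyte surface genes, *egg-1* had 4962 counts in *ebax-1* adults and 8020 in wild-type adults, against 16 and 6 in *ebax-1* larvae and 13 in each wild-type library. Its log2 fold change of 8.34 (SE 0.173) exceeded that of its paralog *egg-2*, at 6.23 (SE 0.152), and their 95% intervals did not overlap (7.95 to 8.73 for *egg-1*, 5.88 to 6.57 for *egg-2*). *egg-2* had 3320 counts in *ebax-1* adults and 4885 in wild-type adults, against 25 and 33 in *ebax-1* larvae and 33 and 42 in wild-type larvae. The egg activation protein *egg-3* had the smallest difference, 5.12 (SE 0.177), with 1781 counts in *ebax-1* adults and 2818 in the wild type, against 58 and 32 in *ebax-1* larvae and 41 and 29 in wild-type larvae. *chs-1* had 9444 counts in *ebax-1* adults and 13547 in wild-type adults, against 23 and 7 in *ebax-1* larvae and 26 and 28 in wild-type larvae, a log2 fold change of 8.39 (SE 0.244). The other chitin synthase, *chs-2*, which serves outside the egg, went the other way at -0.46 (adjusted p = 0.0191, same edgeR fit), with 159 counts in *ebax-1* adults and 220 in wild-type adults, against 152 and 146 in *ebax-1* larvae and 187 and 156 in wild-type larvae.

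In starved L1 larvae, *cpg-1* alone of the eggshell genes passed the main test between the genotypes, and that call did not hold in all settings. The edgeR quasi-likelihood test on the 4 L1 libraries called 1 of the 8 members tested as higher in *ebax-1* mutants and 0 as lower. Over all genes, 6.59% of 13756 were called higher and 9.97% lower, so 1 call among 8 does not set the members apart. Without adjustment, the same cut of 0.05 would have given 2 higher and 0 lower. The share of all genes at that unadjusted cut is not given here, so this count cannot be read against a background. DESeq2 called 0 members in either direction, against 382 genes higher and 887 lower over all genes. The median log2 fold change of the 8 was 0.08, against 0.00603 for all genes tested. The genotypes did not overlap for 5 of the 8, against 56.2% of all genes tested, so the members did not stand out by that measure. With 2 libraries per genotype an exact permutation test cannot pass 0.05, and the p-values rest on the spread edgeR pools over genes.

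The proteoglycan genes had the clearest differences. *cpg-1* had 199 and 164 counts in *ebax-1* larvae, against 152 and 110 in wild-type larvae, or 16.1 ± 1.24 CPM in *ebax-1* and 11.08 ± 1.90 CPM in the wild type (SD, n = 2 each). Both *ebax-1* libraries were above both wild-type libraries, and the log2 fold change was 0.53 (SE 0.165, 95% interval 0.18 to 0.87, edgeR adjusted p = 0.0312). The call rested on single libraries: the value was 0.36 when wild-type replicate 2 was left out (edgeR adjusted p = 0.347) and 0.44 when *ebax-1* replicate 1 was (adjusted p = 0.0957). DESeq2 gave 0.53 (adjusted p = 0.187). Over all 11 alternatives the adjusted p for *cpg-1* ran from 0.00524 to 0.347.

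*cpg-2* had 5.42 ± 1.12 CPM in *ebax-1* larvae and 3.30 ± 0.655 CPM in wild-type larvae (SD, n = 2 each), again with both mutant libraries above both wild-type ones. Its log2 fold change of 0.71 (SE 0.273, 95% interval 0.14 to 1.28) was larger than that of *cpg-1* but missed the threshold (edgeR adjusted p = 0.0824). It passed when all 6 libraries shared the fit (0.72, edgeR adjusted p = 0.0235) and with scaling by total counts (0.87, adjusted p = 0.0264). It did not pass in DESeq2 (0.71, adjusted p = 0.356). With 1 library left out its value ran from 0.48 to 0.93. Under total count scaling the median over all genes was 0.17 on the log2 scale and 76.3% of the calls were higher ones, against 39.8% with TMM.

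**Figure D2:**
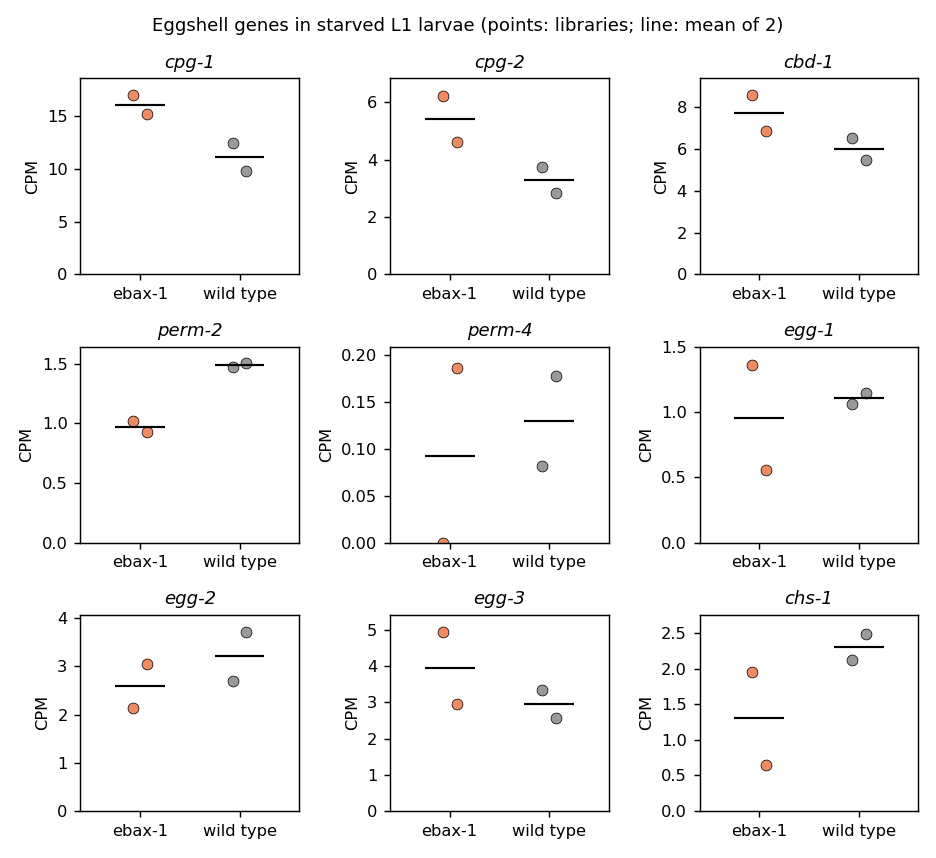
CPM of each eggshell gene in starved L1 larvae, with *ebax-1* at the left and wild type at the right of each panel. Points are libraries and lines are means of 2, and each axis starts at 0. The *ebax-1* points lie above the wild-type points for *cpg-1*, *cpg-2* and *cbd-1*, below them for *perm-2* and *chs-1*, and overlap them for *perm-4*, *egg-1*, *egg-2* and *egg-3*.

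None of the vitelline layer genes passed the test in larvae. *cbd-1* had 7.73 ± 1.23 CPM in *ebax-1* larvae and 6.01 ± 0.743 CPM in wild-type larvae (SD, n = 2 each), without overlap, or 0.36 on the log2 scale (SE 0.217, 95% interval -0.09 to 0.81, edgeR adjusted p = 0.301). *perm-2* was on the other side, with 0.974 ± 0.0674 CPM in *ebax-1* and 1.49 ± 0.0238 CPM in the wild type, or -0.61 on the log2 scale (SE 0.439, -1.52 to 0.30, edgeR adjusted p = 0.399). At 10 to 18 counts per library, an interval of this width leaves changes of either sign possible. *perm-4* was not tested, since its counts were under the filter. The ratio of its pooled counts in *ebax-1* over wild-type larvae was 0.696 (95% counting interval 0.0581 to 6.08), so no difference was detectable at this depth.

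*chs-1* had the lowest value of the 8, at -0.80 on the log2 scale (SE 0.431, 95% interval -1.69 to 0.10, edgeR adjusted p = 0.238). It had 1.30 ± 0.926 CPM in *ebax-1* larvae and 2.30 ± 0.25 CPM in wild-type larvae (SD, n = 2 each). The 2 *ebax-1* libraries differed 3.02-fold for this gene, with 23 and 7 counts. Without *ebax-1* replicate 1 its log2 fold change was -1.82, and without replicate 2 it was -0.23. In both cases the spread comes from the wild-type libraries alone. No fit with 2 L1 libraries per genotype called it.

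The 3 *egg* genes overlapped between the genotypes. *egg-1* had 0.959 ± 0.570 CPM in *ebax-1* larvae and 1.11 ± 0.0624 CPM in wild-type larvae (SD, n = 2 each), or -0.19 on the log2 scale (SE 0.50, edgeR adjusted p = 0.849). Its sign turned with the library left out, being 0.30 without *ebax-1* replicate 2. *egg-2* had 2.59 ± 0.656 CPM in *ebax-1* and 3.21 ± 0.722 CPM in the wild type, or -0.31 on the log2 scale (SE 0.322, edgeR adjusted p = 0.578). *egg-3* had 3.95 ± 1.40 CPM in *ebax-1* and 2.96 ± 0.554 CPM in the wild type, or 0.41 on the log2 scale (SE 0.309, edgeR adjusted p = 0.417), a value that came to -0.00998 without *ebax-1* replicate 1.

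The replicate L1 libraries were themselves uneven for some of these genes. Of the 8 members with at least 5 counts in every L1 library, 7 were higher in *ebax-1* replicate 1 than in replicate 2, with a median ratio of 1.30. In wild-type larvae 4 of the 8 were higher in replicate 1, with a median ratio of 1.08. Over all tested genes both medians were 1.0. The genes with most counts were about as uneven in both genotypes. The ratio was 1.12 in *ebax-1* and 1.28 in wild-type larvae for *cpg-1*, 1.34 and 1.33 for *cpg-2*, and 1.25 and 1.19 for *cbd-1*. It was further from even in *ebax-1* larvae for *chs-1* (3.02 and 0.857), *egg-1* (2.45 and 0.923) and *egg-3* (1.67 and 1.31). For *perm-2* it was 1.10 and 0.978, and for *egg-2* 0.696 and 0.725. The RNAs of oocytes and early embryos, a list of 15 genes, had a median ratio of 1.31 in *ebax-1* larvae (11 of 15 higher in replicate 1) and 0.978 in wild-type larvae. Other germline and egg lists were nearer to even in *ebax-1* larvae, with medians of 1.07 for meiotic genes (8 of 13 higher), 1.04 for mitotic germline genes (5 of 7) and 1.03 for egg activation genes (4 of 8). Differences between lists were not tested. The part of this imbalance in the member values was not tested.

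Other germline RNAs in the same larvae are given for comparison, from lists chosen with earlier results of these data known. Over all genes tested 6.59% were called higher and 9.97% lower. Of the 15 oocyte and maternal genes, 10 rose and 1 fell in *ebax-1* larvae, with a median log2 fold change of 0.85, against 1 of 8 eggshell genes with a median of 0.08. The polarity regulators *mex-5* and *mex-6* rose by 1.24 and 1.5 on the log2 scale (edgeR adjusted p = 1.20e-06 and 2.19e-06), and *lin-41*, a gene of oocytes and also of larval tissues, fell by 0.69 (adjusted p = 4.02e-06). The lists were not matched for depth, and a change is harder to call at low counts. *mex-5* had 435 and 336 counts in *ebax-1* larvae and 166 and 171 in wild-type larvae, while *egg-1* had 16 and 6, and 13 and 13. Other genes of the list had counts in the range of the members, and most of those given here did not pass. These were *nos-2* (0.79, edgeR adjusted p = 0.146), *puf-3* (0.77, adjusted p = 0.157) and *puf-5* (0.75, adjusted p = 0.0856), while *puf-11* passed (1.25, adjusted p = 0.00654). The part of depth in the number of calls per list was not tested. The yolk receptor gene *rme-2*, an oocyte surface protein like EGG-1 and EGG-2, had a log2 fold change of 0.43 and did not pass (adjusted p = 0.311). The values of *rme-2* and of these low-count genes were singled out after they were seen. The summed level of the list was 450 and 397 CPM in *ebax-1* larvae and 414 and 403 CPM in wild-type larvae, of which *lin-41* gave 178 ± 3.32 CPM in *ebax-1* and 286 ± 7.30 CPM in the wild type (SD, n = 2 each).

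Of 13 meiotic genes 1 rose, with a median of 0.45: *dsb-1*, needed for meiotic DNA breaks (1.04, edgeR adjusted p = 0.0410). Of 7 genes of the mitotic germline 3 rose, with a median of 0.43: *pgl-1*, a P granule protein (0.86, adjusted p = 5.46e-04), the Notch receptor *glp-1* (0.77, adjusted p = 0.00222) and its target *sygl-1* (0.75, adjusted p = 0.0105). Sperm and yolk genes were close to the floor in larvae. None of the 3 sperm genes or 3 yolk genes tested passed, 4 of 12 sperm genes and 1 of 6 yolk genes (*vit-4*) had 0 counts in every L1 library, and the 6 yolk genes summed to 3.49 and 3.43 CPM in *ebax-1* larvae and 2.7 and 3.98 CPM in wild-type larvae. Of the early zygotic genes 1 of 2 tested rose, *vet-6* (1.53, edgeR adjusted p = 4.76e-04), and the list summed to 12.9 and 11.7 CPM in *ebax-1* larvae, against 6.54 and 7.52 CPM in wild-type larvae. The part of these RNAs in the *cpg-1* difference was not tested.

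Genes that supply or accompany the shell are given next, with their counts to be read against the same shares of all genes, 6.59% higher and 9.97% lower. Of 4 genes making the chitin precursor UDP-GlcNAc, 1 rose in *ebax-1* larvae: *gfat-1*, which commits fructose 6-phosphate to the pathway, had 124 ± 10.9 CPM in *ebax-1* and 93.3 ± 7.90 CPM in the wild type (SD, n = 2 each), a log2 fold change of 0.41 (edgeR adjusted p = 0.00340). The median of the 4 was 0.36. Of the other proteins with chondroitin chains, 2 of 5 rose, *cpg-4* by 0.72 (adjusted p = 0.0267) and *cpg-7* by 0.52 (adjusted p = 0.0312) on the log2 scale. The 9 enzymes and transporters that build chondroitin chains had a median of -0.08, and 1 fell, the glucuronyltransferase gene *sqv-8* (-0.34, edgeR adjusted p = 0.0306). The core proteins and the chain enzymes thus had medians of opposite sign, 0.52 and -0.08, and this difference was not tested.

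For the lipid barrier inside the shell, 0 of 8 genes tested rose and 2 fell, with a median of -0.22. These were *pod-2*, the acetyl-CoA carboxylase (-0.94, edgeR adjusted p = 8.38e-07), and *emb-8*, the NADPH-cytochrome P450 reductase (-0.52, adjusted p = 5.71e-04). POD-2 starts fatty acid synthesis, and EMB-8 passes electrons to cytochrome P450 enzymes. Unlike the eggshell genes, neither was higher in wild-type adults than in wild-type larvae. *pod-2* had 1099 CPM in wild-type L1 larvae and 566 CPM in wild-type adults, and *emb-8* had 242 and 187 CPM. Of 8 egg activation and cortical granule genes, 1 rose, with a median of 0.18: the small GTPase *rab-11.1* (0.28, edgeR adjusted p = 0.0379). *chs-2* and the chitinase gene *cht-1* did not pass in larvae, at -0.14 (adjusted p = 0.597) and 0.13 (adjusted p = 0.372). In the stage comparison all 4 precursor genes and all 9 chondroitin chain genes were higher in adults, with median log2 fold changes of 3.92 and 1.71, against 8.34 for the eggshell genes. These stage counts are to be read against all 15800 genes tested, of which 6955 were higher and 6625 lower in adults. The remaining lists were mixed. Of 5 other core proteins 4 were higher and 1 lower in adults (median 0.49), and of 9 lipid barrier genes 6 were higher and 2 lower (median 2.0). Of 8 egg activation genes 5 were higher and 1 lower (median 3.21). Of 3 chitin genes outside the egg 1 was higher and 2 lower (median -0.46). The higher one was *cht-3*, at 9.13, above the eggshell median. It had 4024 counts in *ebax-1* adults and 6399 in wild-type adults, against 8 and 5 in *ebax-1* larvae and 6 and 3 in wild-type larvae.

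In gravid adults 0 of the 9 eggshell genes were at least 2-fold apart between the genotypes. The share was 5.91% of the 13563 genes with at least 50 counts in sum, so with 9 members this count does not set them apart. The median log2 ratio of *ebax-1* over wild type was -0.06, against -0.00934 for all genes. There was 1 library per genotype, so no test was made and intervals cover counting error only. Values here are CPM scaled between the 2 adult libraries alone. *perm-4* had the lowest ratio, with 640 CPM in *ebax-1* adults and 769 CPM in wild-type adults, a ratio of 0.833 (95% interval 0.811 to 0.855). *cpg-1* followed, with 1301 CPM in *ebax-1* adults and 1525 CPM in wild-type adults, a ratio of 0.853 (0.837 to 0.869). These ratios stood at the 22.2 and 25.0 percentiles of all genes.

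The other proteoglycan and vitelline genes were closer to the wild type. *cpg-2* had a ratio of 0.955 (95% interval 0.938 to 0.971), *cbd-1* of 0.935 (0.918 to 0.951) and *perm-2* of 0.960 (0.932 to 0.989). The egg genes lay on both sides of 1, with *egg-1* at 0.981 (0.947 to 1.02), *egg-3* at 1.0 (0.944 to 1.06) and *egg-2* at 1.08 (1.03 to 1.13). The log2 ratio of *egg-1* was -0.03 here and 0.01 with scaling by total counts. *chs-1* had the highest ratio of the 9, with 710 CPM in *ebax-1* adults and 642 CPM in wild-type adults, or 1.11 (1.08 to 1.13). It stood at the 69.6 percentile of all genes. The counts of these genes are large, so the intervals are narrow, but the spread between adult cultures is unknown.

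**Figure D3:**
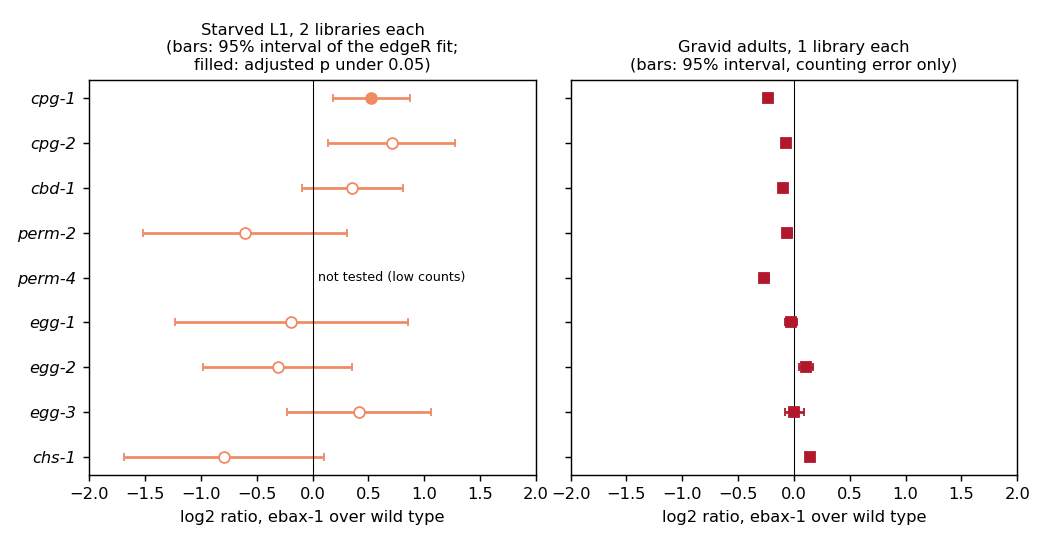
Log2 ratio of *ebax-1* over wild type for each eggshell gene, in starved L1 larvae at the left and gravid adults at the right. Bars are 95% intervals, from the edgeR fit over 2 libraries each in larvae and from counting error alone over 1 library each in adults, and the filled circle is the gene with an adjusted p under 0.05. In adults all values lie between -0.26 and 0.14, while in larvae they run from -0.80 to 0.71.

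The genotype difference was then set side by side between the stages with an interaction term over the 6 libraries. Each genotype has 1 adult library, so all of the spread in this fit comes from the L1 replicates, and its p-values hold only if adult cultures vary as those do, which these data cannot show. The same L1 libraries enter this term and the L1 comparison, and the mutant strain differs between the stages. Under that assumption the term passed the threshold for 2 of 9 members, against 9.27% of 15800 genes. For *cpg-1* the adult value minus the L1 value was -0.81 on the log2 scale (SE 0.192, 95% interval -1.20 to -0.41, edgeR adjusted p = 0.00636), and for *cpg-2* it was -0.83 (SE 0.252, -1.34 to -0.31, adjusted p = 0.0358). For both proteoglycan genes the 2 *ebax-1* L1 libraries were above the wild-type ones, and the *ebax-1* adult library was below the wild-type adult library. Without wild-type replicate 2 neither passed (adjusted p = 0.134 for *cpg-1* and 0.301 for *cpg-2*), and *cpg-2* was also lost when wild-type replicate 1 (adjusted p = 0.0525) or *ebax-1* replicate 1 (adjusted p = 0.203) was left out. Over the alternatives of this term the adjusted p ran from 1.15e-04 to 0.134 for *cpg-1* and from 0.00260 to 0.301 for *cpg-2*.

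The other 7 members did not pass. *chs-1* had the value furthest in the opposite direction, 0.89 (SE 0.370). It was 1.92 without *ebax-1* replicate 1, the library with its higher count, and 0.33 without replicate 2. With either left out, the spread of the fit comes from the wild-type L1 libraries alone. *cbd-1* was at -0.50 (SE 0.217), at -0.65 without *ebax-1* replicate 2 and at -0.32 without replicate 1. *egg-3* was at -0.46, *perm-2* at 0.50, *egg-2* at 0.37, *perm-4* at 0.17 and *egg-1* at 0.11, with adjusted p-values of 0.393 to 0.973.

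Seen within each genotype, the adult level exceeded the L1 level by 72.4-fold in *ebax-1* mutants and 128-fold in the wild type for *cpg-1*, and by 259-fold in *ebax-1* and 464-fold in the wild type for *cpg-2*. For *cbd-1* it was 167-fold in *ebax-1* and 239-fold in the wild type, and for *egg-3* 30.0-fold in *ebax-1* and 41.9-fold in the wild type. The order was turned for *chs-1*, at 478-fold in *ebax-1* and 261-fold in the wild type, for *perm-2*, at 486-fold in *ebax-1* and 346-fold in the wild type, and for *egg-2*, at 86.9-fold in *ebax-1* and 67.7-fold in the wild type. *egg-1* was nearly level, at 342-fold in *ebax-1* and 321-fold in the wild type. Summed over the 9 genes the adult level was 159 times the larval mean in *ebax-1* mutants and 219 times in the wild type.

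**Figure D4:**
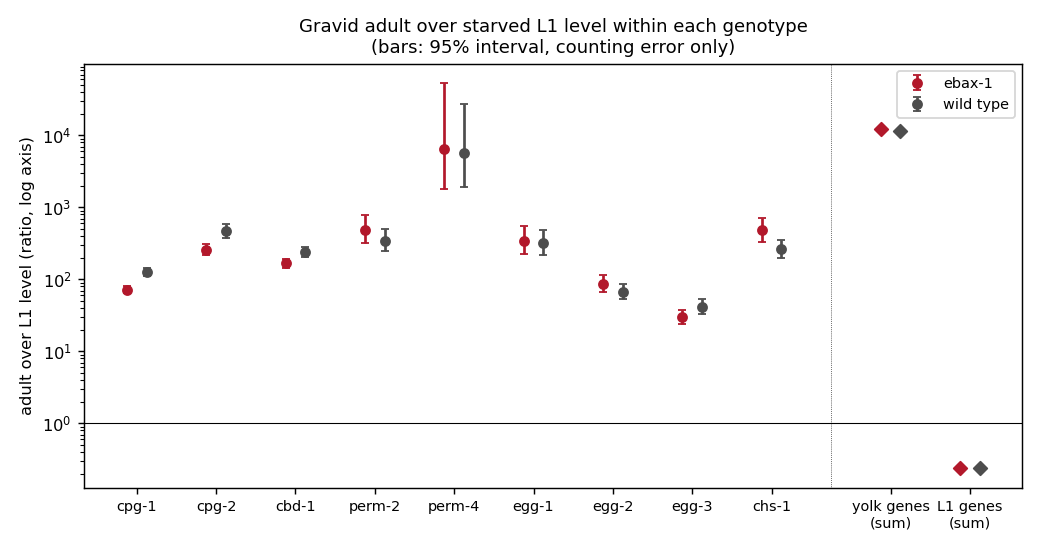
Adult over L1 level of each eggshell gene within *ebax-1* mutants (red) and within the wild type (grey), on a log axis, with 95% intervals for counting error only. Diamonds at the right give the same ratio for summed yolk genes, 12354 in *ebax-1* and 11627 in the wild type, and for summed L1 genes, 0.237 in *ebax-1* and 0.239 in the wild type. The 9 genes lie between 30.0 and 6462, below the sum of the yolk genes and far above the sum of the L1 genes. Single yolk genes are not drawn, and not all of them exceeded the eggshell genes: the stage log2 fold change was 7.98 for *vit-3* and 8.41 for *cpg-2*.

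The genes with the profile most like the mean of the members were looked up as a description. The measure was the root mean square distance of centred log2 CPM over the 6 libraries, and 15939 genes were compared, with a median distance of 3.65. The nearest were *spe-11* at 0.124, E03H12.5 at 0.148, C15C6.2 at 0.150, *cylc-1* at 0.166 and *col-49* at 0.167. All 5 had 0 counts in every L1 library and 446 to 1082 counts in the adult libraries, so their distance depends on the prior count of 2 added before the log, and none of them stayed in the first 5 with a prior count of 1 or 5. *spe-11* encodes the sperm-supplied protein that the embryo needs to form its eggshell. Among 12054 genes with at least 10 counts in every library, a limit added after the data were seen, the nearest were *skpo-1*, a haem peroxidase gene (0.306), *gfat-2* (0.352), *col-8* (0.443), C39D10.7 (0.486) and *col-181* (0.514). *gfat-2* is the second enzyme gene for the first step of UDP-GlcNAc synthesis. It had 4928 counts in *ebax-1* adults and 8463 in wild-type adults, against 20 and 16 in *ebax-1* larvae and 34 and 28 in wild-type larvae, and its L1 log2 fold change of -0.72 did not pass (edgeR adjusted p = 0.188), while *gfat-1* rose. Of the members themselves, *cbd-1* lay nearest to their mean, at 0.191, and *perm-4* furthest, at 1.66.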

How the data were processed

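Poly(A)+ RNA of 6 libraries was analysed from the raw counts per gene that the authors deposited, with no normalization. According to the methods of the study and the processing notes of the submitters, STAR 2.7.1a placed the reads on the genome, and unique placements were assigned by strand to coding sequence with featureCounts. Untranslated regions and reads that fit near-identical genes were thus not counted. The methods name WS245 and the notes name the WBcel235 build, and positions and symbols were taken from the WBcel235 annotation, in which 19620 genes had both. DESeq2 was the tool of the authors.

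L1 larvae were tested on the 4 L1 libraries (*ebax-1* 2, wild type 2) in R 4.3.3 with edgeR 4.0.16, after filterByExpr (minimum count 10), by TMM factors, the two-sided quasi-likelihood F-test and Benjamini-Hochberg adjustment over all genes tested, at a threshold of 0.05. Stage and the interaction were fitted over the 6 libraries. Adults had 1 library per genotype and no test: ratios were TMM-scaled between them, with a prior count of 1 on the log2 scale, over genes with at least 50 counts in sum, and 95% exact binomial intervals. The fits were tested on simulated data. Alternatives were other size factors, total count scaling, DESeq2 1.42.0, other filters and models, a replicate block and leaving out each replicate.

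Named genes were the 9 members, *ebax-1*, *chs-2*, the 5 nearest profiles, and from every list the 3 calls of lowest adjusted p (fewer where fewer were made), or the 2 lowest p-values if it had no call. Outside this rule, *rme-2*, *nos-2*, *puf-3*, *puf-5*, *puf-11*, *vit-3*, *vit-4* and *cht-3* were named after their values were seen. So were the nearest profiles among genes with at least 10 counts in every library. The members and lists were chosen with earlier results of these data known.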

Additional observations from a re-analysis of the deposited data

Results flagged for a closer look

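The interaction term of genotype and stage passed its threshold for *cpg-1*, on the assumption that adult cultures vary as the L1 replicates do. The adult value minus the L1 value was -0.81 on the log2 scale (edgeR adjusted p = 0.00636, and 0.134 without wild-type replicate 2). The *ebax-1* libraries were above the wild-type libraries in 2 of 2 L1 replicates and below in the adult pair. *cpg-2* passed in the same way with -0.83 (edgeR adjusted p = 0.0358, and 0.301 without wild-type replicate 2), and again both *ebax-1* L1 libraries were above the wild-type ones while the adult ratio was 0.955. The adult genotype difference is 1 library against 1 and has no replicate check. The adult mutants came from another strain of the same allele, and stage and strain cannot be told apart here.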

How the results depend on the processing

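The count of eggshell genes higher in *ebax-1* L1 larvae was 1, and it was 2 with total count scaling and in the model of all 6 libraries, 0 in DESeq2, and 0 to 2 with 1 library left out. The count of lower ones was 0, and 0 to 1 with 1 library left out. Calls over all genes were 907 higher and 1371 lower, against 2341 and 728 with total count scaling, 382 and 887 in DESeq2, and 521 to 992 and 838 to 1404 with 1 library left out. Interaction calls were 728 higher and 736 lower, against 230 and 205 in DESeq2 and 565 to 986 and 549 to 1069 with 1 library left out. Members called by that term ran from 0 to 1 higher and from 0 to 3 lower when 1 library was left out.

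Signs turned in L1 larvae for *egg-1* (0.30 without *ebax-1* replicate 2, range -0.99 to 0.30 over the libraries left out) and *egg-3* (-0.00998 without *ebax-1* replicate 1, range -0.00998 to 0.73). In the interaction they turned for *perm-4* (-0.41 when wild-type replicate 2 and -0.81 when *ebax-1* replicate 1 was left out, range -0.81 to 3.70) and *egg-1* (-0.37 when *ebax-1* replicate 2 was, range -0.37 to 0.92). The cause was not tested. All 9 members were higher in adults under all 10 alternatives of the stage comparison, and none was 2-fold apart between adult genotypes under all 4 alternatives tried there. Of the 5 nearest profiles, 0 stayed with a prior count of 1, with a prior count of 5 or with at least 10 counts in every library.

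Replicate numbers were shared between the genotypes, but the correlation of same-numbered deviations was -0.00324, so they did not pair the libraries. With the replicate number as a block, 871 genes were higher and 1378 lower, and 1 member was higher and 0 lower, with *cpg-1* at 0.53 (edgeR adjusted p = 0.0298). At 0 to 42 counts per L1 library, depth limits what can be said of *perm-2*, *perm-4*, *egg-1*, *egg-2* and *chs-1*.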
